A study of Mus musculus with 6 samples.

Results

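The genes described here encode the thiol redox and antioxidant enzymes of the liver, without the glutathione transferases and the protein disulfide isomerases. They were chosen by name, and all 40 symbols were found among the 16123 genes of the deposited KO against WT table. The RNA came from livers of male mice that were 2 months old when the study began, were fed a purified chow diet for 4 weeks and were fasted for 16 hours. The groups were 3 pools of wild type mice (WT, strain C57BL/6Rj) and 3 pools of *Txndc5*-deficient mice (KO, C57BL/6JRj-Txndc5<em2Mdnp>/Ciba), and the study's methods give 3 mice per pool. The KO line descends from a single founder in which a pair of Cas9 guides removed exon 3 of *Txndc5*, and it carries the deletion in every cell type. The comparison bears on how the loss of TXNDC5, a thioredoxin-fold protein of the endoplasmic reticulum with proposed antioxidant functions, is reflected in the hepatic transcriptome.

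Hydrogen peroxide and lipid peroxides are reduced in hepatocytes by catalase, by glutathione peroxidases, which draw electrons from glutathione, and by peroxiredoxins, most of which draw them from thioredoxin. Oxidised glutathione and thioredoxin are reduced again by their reductases at the cost of NADPH. Glutathione itself is made from glutamate, cysteine and glycine in a pair of steps, the first of which limits the rate and is catalysed by the GCLC and GCLM subunits. Many of these genes are under the transcription factor NRF2 (*Nfe2l2*), which is held back by KEAP1 until oxidants or electrophiles modify it. The liver is the main source of circulating glutathione and is rich in catalase and in the selenoprotein GPX1.

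The deposited table gives 1 value per genotype and gene, a number of reads scaled by library size factors, so that for most genes no spread between pools can be given and no test was made. These values were built from a ratio shrunken toward no change. The targeted gene, *Txndc5*, was at 2697 normalized reads in WT and at 90.8 in KO, 29.7-fold lower in the libraries labelled KO. In whole tissue, fewer cells of a type and less RNA per cell cannot be told apart. The 6 libraries held between 44040160 and 46050030 clean reads, and between 62.19% and 65.69% of them mapped to a single place. KO libraries had on average 1040940 more clean reads (p = 0.3 in an exact permutation test, two-sided, which cannot go below 0.1 with 3 libraries against 3). For weakly expressed genes, whole reads could be worked out for each of the 6 libraries, of which size factors were 1.31, 1.04 and 0.886 in KO and 1.22, 0.879 and 0.818 in WT. These recovered libraries carry no pool number. The library with the largest size factor stood apart in both genotypes in the same way. Across 3307 weakly expressed genes, its deviation from the mean of its own genotype had a Pearson's r of 0.61 between KO and WT, whereas the other pairs of a KO and a WT library had values between −0.39 and 0.28. All 10 hepatocyte markers were listed, with *Alb* at 1329546 normalized reads in WT and 1332576 in KO. The KO value was the higher one for 3 of these markers and the lower one for 7. Among the 7, *Apob* had 35805 in WT and 24961 in KO, and *Apoa1* had 667133 and 505509. Summed over all 10 markers, the values were 2700251 in WT and 2474589 in KO.

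The redox genes were, with few exceptions, abundant transcripts. The mean of both genotypes reached 100 normalized reads in 34 of the 40 (85.0%), against 43.8% of all genes listed. Per kb of transcript, the median member had 466 normalized reads and the median gene listed 21.1. *Gpx1*, the cytosolic and mitochondrial glutathione peroxidase, led with 45956 normalized reads per kb and was number 45 of all genes. It was followed by *Sod1*, the cytosolic copper-zinc superoxide dismutase, with 20122, by peroxisomal catalase (*Cat*) with 13046, by the lipid peroxide reductase *Gpx4* with 9131, and by *Sqstm1*, the autophagy receptor p62 that binds KEAP1, with 6286. At the other end were *Msrb3* with 12.3, *Gpx8* with 2.94 and *Ggt1*, the enzyme that breaks down extracellular glutathione, with 0.440 normalized reads per kb. With 1 value per genotype, neighbours in this order could not be compared against a spread.

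**Figure D1:**
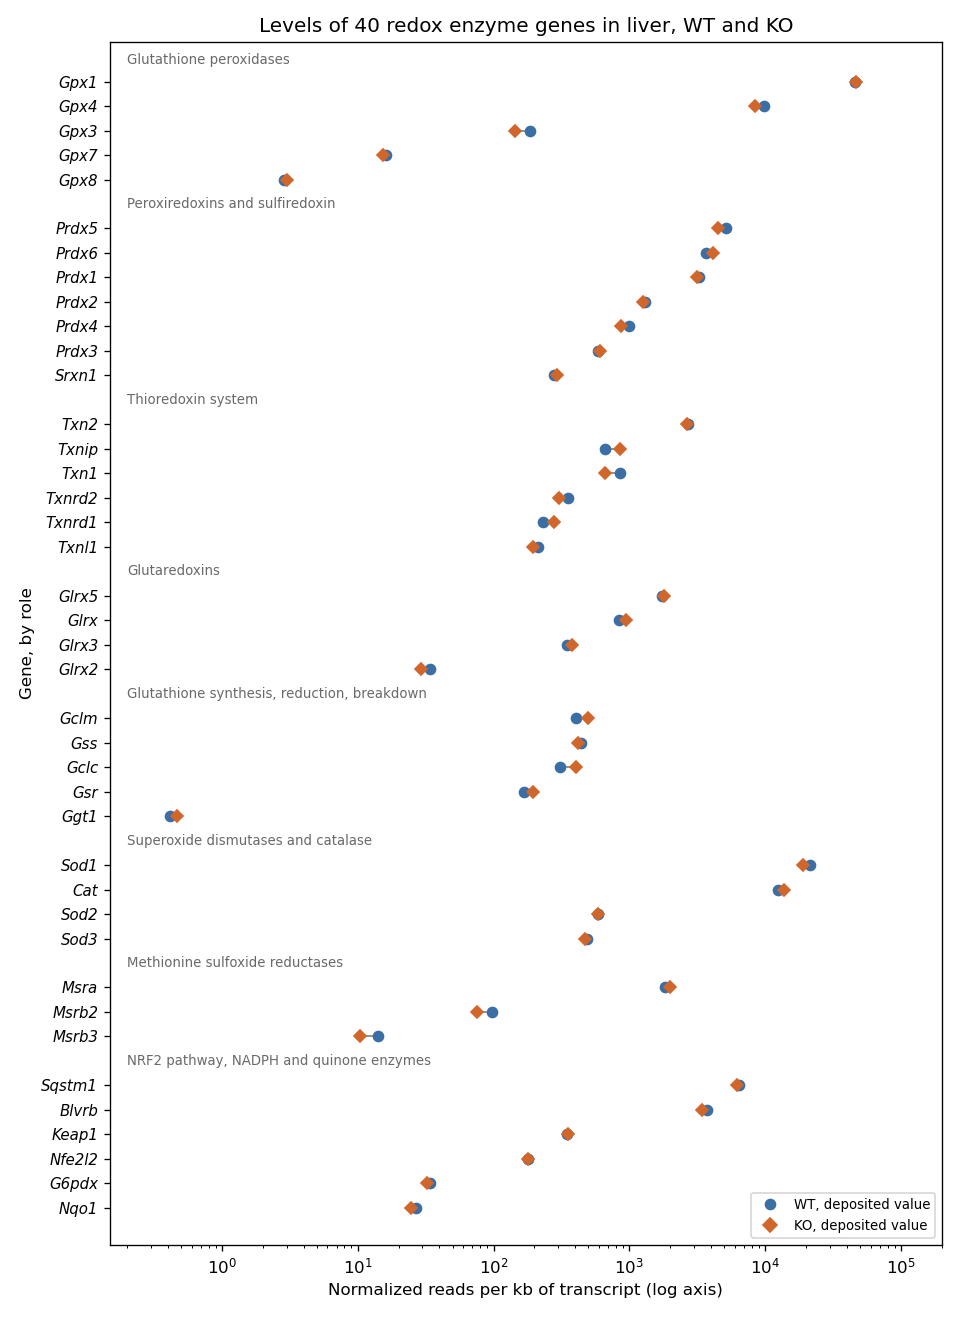
Normalized reads per kb of transcript (horizontal log axis) for the 40 genes grouped by role (vertical axis), with a circle for the WT value and a diamond for the KO value, each the deposited value of the genotype. The genes span from 0.440 to 45956 normalized reads per kb as the mean of both genotypes, and the distance between WT and KO is small beside that range.

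By the deposited, shrunken values, none of the 40 genes passed 1.5-fold between KO and WT in either direction, for which 1.76% of all genes listed were higher, 5.18% lower and 6.93% either. Of the 5 genes with reads recovered per library, described further on, the unshrunken ratio of the means passed 1.5-fold in *Ggt1*, at 2.47 from 6 reads in all, and was −0.54 on the log2 scale in *Msrb3*. Past 0.32 on the log2 scale, a KO value at least 25% above WT or at least 20% below it, *Gclc* and *Txnip* were higher in KO and *Msrb3*, *Msrb2*, *Gpx3* and *Txn1* were lower. These 6 genes are 15% of the members, against 24.0% of all genes, of which 8.55% were higher and 15.5% lower. Among genes averaging 100 or more, 5 of 34 members passed that limit (14.7%), as did 16.9% of all such genes. With a limit of 1.2-fold *Gclm* and *Txnrd1* joined, so that 8 members passed, against 31.7% of all genes. At each of these limits the share of members was below that of all genes listed. The log2 ratios of KO over WT lay between −0.43 and 0.40. Their median was −0.03 and that of all genes listed −0.04, with 17 members above 0 and 23 below. Of all genes listed, 6986 were above 0 and 9137 below. Centring on the median of the 14106 genes averaging 1 or more (−0.05) put 23 members above 0. With genes of like length as the centre, 26 were there. Both centrings move the other genes as well. By construction, each puts as many of the genes that set its median above 0 as below. For like length these are the genes averaging 100 or more, taken by length class. Over all genes listed the number above 0 after centring was not counted.

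**Figure D2:**
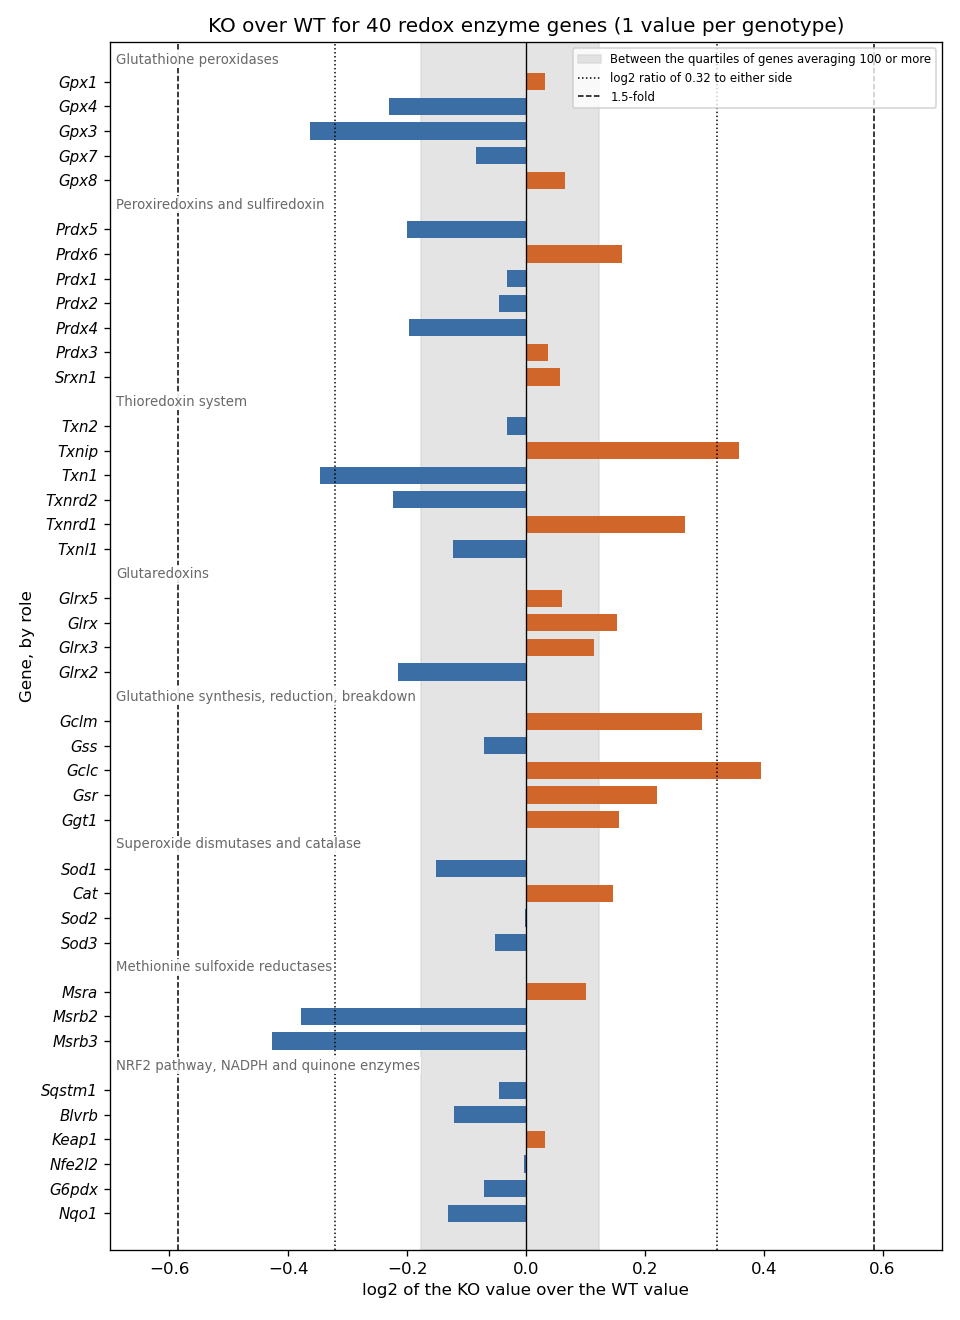
The log2 of the KO value over the WT value (horizontal axis) for the 40 genes by role, with dotted lines at 0.32 to either side, dashed lines at 1.5-fold and a grey band between the quartiles of all genes averaging 100 or more, from −0.18 to 0.12. No bar reaches a dashed line, and *Gclc*, *Txnip*, *Txn1*, *Gpx3*, *Msrb2* and *Msrb3* reach past the dotted ones.

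The enzymes of glutathione synthesis, reduction and breakdown had the highest median log2 ratio of the 8 role groups (0.22), with 4 members higher in KO and 1 lower, and no member of it changed sign under any of the other scalings tried. *Gclc* (chr9:77754535-77794489, RefSeq on GRCm38.p6), the catalytic subunit of glutamate-cysteine ligase, was at 1057 normalized reads in WT and at 1390 in KO, 1.32-fold higher. *Gclm* (chr3:122245487-122267215), its modifier subunit, had 843 in WT and 1034 in KO, 1.23-fold higher. Both subunits of the rate-limiting enzyme were thus higher in KO, and per kb there were 0.755 *Gclc* for each *Gclm* in WT and 0.809 in KO. Glutathione reductase (*Gsr*), which regenerates glutathione, had 448 in WT and 522 in KO. Glutathione synthetase (*Gss*), the enzyme of the second step, was at 864 in WT and 823 in KO. *Ggt1* was at 0.892 in WT and 0.994 in KO. *Ggt1* rests on 6 reads in all, and its reads per library are given further on. For the other genes of the group no spread between pools stands behind the values, so that the differences could not be set against one.

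In the thioredoxin system the members differed in direction. *Txn1* (chr4:57943373-57956411), the cytosolic thioredoxin, was at 891 in WT and at 700.2 in KO, 1.27-fold lower. *Txnip* (chr3:96557957-96561857), which binds thioredoxin, holds it back and also limits glucose uptake, had 1865 in WT and 2390 in KO, 1.28-fold higher. Per kb there were 0.786 *Txnip* transcripts for each *Txn1* in WT and 1.28 in KO, so that their order differed between the genotypes. *Txnrd1* (chr10:82833951-82897724), the cytosolic thioredoxin reductase and a selenoprotein, had 788 in WT and 948 in KO. *Txnrd2*, its mitochondrial counterpart, had 680.0 in WT and 583 in KO, whereas mitochondrial thioredoxin *Txn2* was at 3471 and 3397. *Txnl1*, a thioredoxin-like protein bound to the proteasome, had 544 in WT and 500.3 in KO. Only *Txn2* of these 6 genes changed sign, when ratios were centred on the median of genes averaging 1 or more or on genes of like length.

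Among the glutathione peroxidases, *Gpx1* had a log2 ratio of 0.03, from 48430.0 in WT and 49548 in KO. *Gpx4*, the selenoprotein that reduces phospholipid hydroperoxides in membranes, had one of −0.23, from 9602 in WT and 8186 in KO (−0.03 when centred on genes of like length). *Gpx3* (chr11:54902854-54910387), the secreted plasma form, had one of −0.36, from 279.7 in WT and 218 in KO. The most abundant member of the family was near equal between the genotypes and the secreted one lower in KO. *Gpx7* and *Gpx8*, which lie in the endoplasmic reticulum and can pass oxidising equivalents to protein disulfide isomerases, had values of 19.7 and 2.92 in WT and of 18.5 and 3.06 in KO, and *Gpx7* changed sign when centred on genes of like length (0.03).

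The peroxiredoxins stayed between −0.20 and 0.16 on the log2 scale. *Prdx6*, which reduces phospholipid peroxides with glutathione, had the highest ratio of them, with 8791 in WT and 9835 in KO. *Prdx4*, the peroxiredoxin of the endoplasmic reticulum, which like *Gpx7* and *Gpx8* feeds disulfides to the isomerase family of TXNDC5, had 997 in WT and 870.2 in KO. *Prdx5* had 3554 in WT and 3096 in KO. *Prdx1*, *Prdx2* and mitochondrial *Prdx3* had log2 ratios of −0.03, −0.04 and 0.04, and sulfiredoxin (*Srxn1*), which repairs over-oxidised peroxiredoxins, had 0.06. Centred on genes of like length, the ratios of *Prdx1*, *Prdx2*, *Prdx4* and *Prdx5* turned positive, with values of 0.08, 0.07, 0.0026 and 3.8e-04, and those of *Prdx1* and *Prdx2* also did when centred on the median of genes averaging 1 or more. RefSeq lists 6 pseudogenes named after *Gpx4*, *Prdx1*, *Prdx2* and *Prdx6*. How reads shared with such copies were counted is not given in the sources used here, so that these 4 genes are uncertain. Pseudogenes under other names were not searched for, so that other members may have copies as well.

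Of the enzymes acting on superoxide and peroxide, *Sod1* had 13998 in WT and 12604 in KO (log2 ratio −0.15, and 0.05 when centred on genes of like length). Mitochondrial *Sod2* was at 2242 in WT and 2238 in KO, a difference that changed sign when centred on the median of genes averaging 1 or more, and extracellular *Sod3* at 997 and 962. *Cat* had 31582 in WT and 34977 in KO, 1.11-fold higher. The glutaredoxins, small enzymes that remove glutathione from proteins or carry iron-sulfur clusters, had log2 ratios of 0.15 for *Glrx*, 0.12 for *Glrx3*, 0.06 for *Glrx5* and −0.22 for mitochondrial *Glrx2*.

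The 2 lowest log2 ratios of the whole set were those of methionine sulfoxide reductases. *Msrb3* (chr10:120781100-120899011) had 52.4 in WT and 39.0 in KO, and *Msrb2* (chr2:19371436-19394976), the mitochondrial form, had 118 in WT and 90.9 in KO. *Msra*, which reduces the other stereoisomer of methionine sulfoxide, had 2619 in WT and 2810.4 in KO. The group was therefore not uniform, and *Msra* was the most abundant of the 3 members, with 1909 normalized reads per kb against 86.8 for *Msrb2*. *Msrb1*, a methionine sulfoxide reductase outside the members that is counted below among other selenoproteins, had 8251 normalized reads per kb. It was at 7352 in WT and 7565 in KO (log2 ratio 0.04).

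By the deposited, shrunken values, the NRF2 pathway genes were close to equal in the genotypes. Only for *Nqo1* among them could a spread between libraries be given, which is wide and described further on. *Nfe2l2* was at 436 in WT and at 435 in KO, and *Keap1* had 1125 and 1150.5. *Sqstm1* was at 12810.5 in WT and 12407 in KO. *Nqo1*, the quinone reductase often used as a readout of NRF2, was at 42.0 in WT and 38.3 in KO. *G6pdx*, the entry enzyme of the pentose phosphate pathway and a source of NADPH, had 89.6 and 85.3, and *Blvrb*, the flavin and biliverdin reductase, 3152 and 2897. The log2 ratios of these 6 genes lay between −0.13 and 0.03, and those of *Nfe2l2*, *Keap1*, *Sqstm1* and *Blvrb* changed sign when centred on genes of like length, as did those of *Nfe2l2* and *Sqstm1* when centred on the median of genes averaging 1 or more.

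Promoter sequences were examined because *Gclm* and *Txnrd1*, both higher in KO, are known NRF2 targets. NRF2 binds the antioxidant response element, the core of which was searched as TGACNNNGC on both strands, from 250 bases before to 50 bases after each start in the RefSeq promoter table (GRCm38.p6). The table holds promoters of 34 of the 40 members. A match was found in 9 of these 34 genes and in 11 of their 47 promoters (23.4%), against 12.4% of all promoters in the table. It holds none of *Gclc*, *Gsr*, *Msra*, *Prdx6*, *Sod3* and *Txnl1*, which were not searched and are in neither of the medians below. *Gclc* had the highest ratio of the 40 members. The stretches shown, each before a start site of that table, belong to *Gclm* and *Txnrd1*, which were higher in KO, and to *Prdx1* and *Sod1*, which were not. That of *Txnrd1* lies inside the span of the gene (chr10:82833951-82897724), before an internal start, and not at the 5′ end of the gene. Capitals mark the match, which in all 4 lies on the opposite strand and so reads as GCNNNGTCA.
Gclm, chr3:122245368-122245486, plus strand: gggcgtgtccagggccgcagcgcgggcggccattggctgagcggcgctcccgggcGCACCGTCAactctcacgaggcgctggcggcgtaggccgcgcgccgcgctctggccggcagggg
Txnrd1, chr10:82859059-82859178, plus strand: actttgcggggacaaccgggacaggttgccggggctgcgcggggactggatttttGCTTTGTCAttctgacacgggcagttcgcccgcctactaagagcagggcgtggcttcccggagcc
Prdx1, chr4:116685411-116685530, plus strand: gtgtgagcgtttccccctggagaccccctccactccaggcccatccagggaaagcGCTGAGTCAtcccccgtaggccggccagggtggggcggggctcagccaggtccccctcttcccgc
Sod1, chr16:90220642-90220753, plus strand: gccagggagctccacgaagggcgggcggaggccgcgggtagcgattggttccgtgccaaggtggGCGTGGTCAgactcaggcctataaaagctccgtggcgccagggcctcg
The match begins 134 bases before the start in *Gclm*, 92 in *Txnrd1*, 133 in *Prdx1* and 56 in *Sod1*. The log2 ratios of these genes were 0.30, 0.27, −0.03 and −0.15. Over the 9 members with a match the median log2 ratio was −0.0032, with 4 above 0 and 5 below, and over the 25 without one it was −0.05, with 9 above 0 and 16 below. A match describes these letters alone and not binding of the factor.

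Reads per library could be recovered for 5 of the 40 genes, all of them weakly expressed. *Msrb3* had 75, 33 and 20 reads in the KO libraries and 102, 46 and 22 in the WT libraries, each in the order of falling size factor. Divided by the size factors these were 57.1, 31.9 and 22.6 in KO and 83.3, 52.3 and 26.9 in WT. The groups overlapped, and in both genotypes the library with the largest size factor was the highest, at 2.10 times the mean of the other two in KO and 2.10 times in WT. KO libraries averaged 37.2 ± 17.9 and WT libraries 54.2 ± 28.2 (SD, n = 3 each), which a two-sided exact permutation test did not separate (p = 0.6). *Acta2*, *Lrat* and *Lum*, the 3 of 10 stellate cell and fibroblast markers with reads recovered, summed to 140, 75.3 and 103 normalized reads in the same KO libraries and to 193, 129 and 114 in the WT libraries. By the deposited values 6 of the 10 markers were lower in KO, these 3 among them. The other 4 were higher, among them *Col1a1* and *Col3a1*. What part such cells have in the values of *Msrb3* was not tested. The genotypes overlapped in all 5 genes. Of the 3307 genes whose normalized reads sum to between 60 and 400, a range that holds *Msrb3*, *Nqo1* and *Gpx7*, 5.72% did not overlap.

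*Nqo1* had 27.4, 65.7 and 20.3 normalized reads in the KO libraries and 35.1, 54.6 and 37.9 in the WT libraries. The highest and the lowest library were both KO, and WT lay between them. KO libraries averaged 37.8 ± 24.4 and WT libraries 42.5 ± 10.5 (SD, n = 3 each; exact permutation test, p = 0.8). *Gpx7* had 12.95, 20.3 and 21.5 normalized reads in KO and 6.53, 21.6 and 31.8 in WT. Here the library with the largest size factor was the lowest of each genotype, and the means of 18.2 ± 4.60 for KO and 19.98 ± 12.7 for WT (SD, n = 3 each) were not separated (exact permutation test, p = 0.8).

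*Gpx8* was represented by 21 reads in all, 10, 2 and 0 in the KO libraries and 6, 2 and 1 in the WT libraries. Again the library with the largest size factor held most of them in both genotypes, and without that library in each genotype the difference between the means turned from 0.385 to −0.783 normalized reads. *Ggt1* had 6 reads in all, with 0, 3 and 1 in KO and 2, 0 and 0 in WT, so that a difference was not detectable at this depth. The exact permutation test gave p = 0.9 for *Gpx8* and p = 0.7 for *Ggt1*. For *G6pdx*, *Msrb2* and *Glrx2* between 2 and 27 sets of reads remained possible, and none was chosen.

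**Figure D3:**
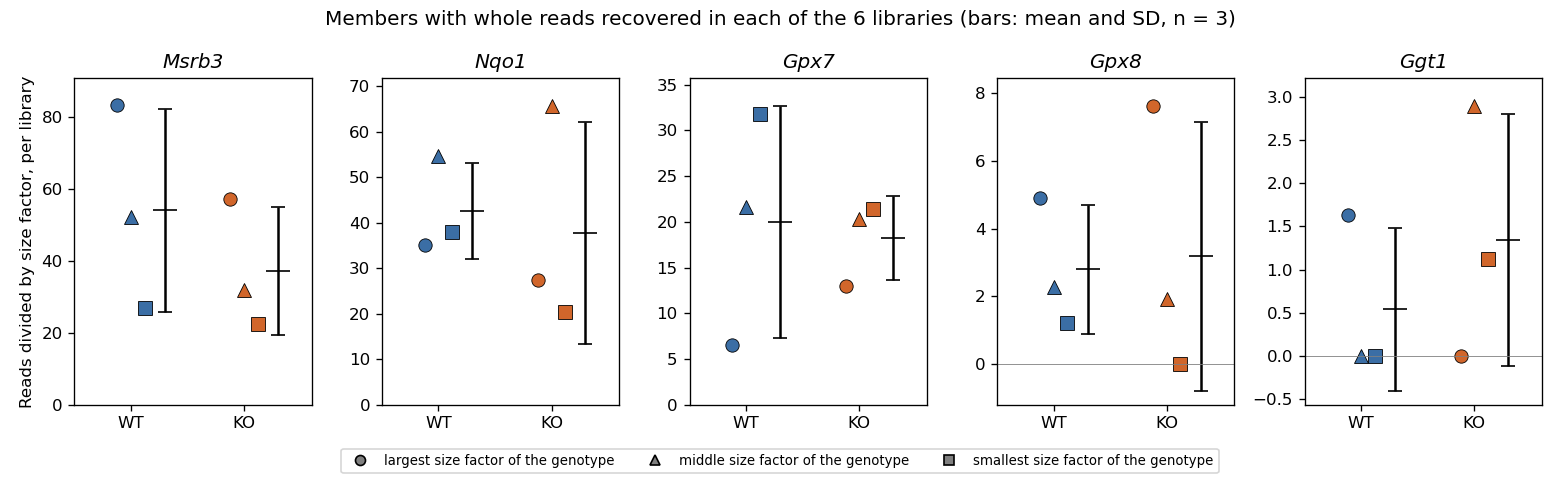
Reads divided by the size factor (vertical axis) in each WT and KO library for the 5 genes with recovered reads. Circles, triangles and squares are the libraries with the largest, middle and smallest size factor of the genotype, and the bars give the mean and SD of 3 libraries. In every panel WT and KO overlap, and the circles are highest for *Msrb3* and *Gpx8* and lowest for *Gpx7* in both genotypes.

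The 3 of these genes with a sum of normalized reads from 60 to 400 were compared in limma together with all 3307 genes of that range, on log2(normalized reads + 1). *Msrb3* had a difference of KO minus WT of −0.49 (95% interval −1.72 to 0.73, adjusted p = 0.999), *Nqo1* of −0.32 (−1.47 to 0.83, adjusted p = 0.999) and *Gpx7* of 0.09 (−1.22 to 1.39, adjusted p = 0.999). In that fit 0.0302% of the genes passed an adjusted p of 0.05 and 1.91% had an unadjusted p under 0.05. The interval of *Gpx7* holds a 2-fold difference in either direction. *Gpx7* without the library with the largest size factor of each genotype had a difference of −0.32.

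The direction of the redox genes went with the length of their transcripts. All 5 members averaging 100 or more and shorter than 1000 bases, *Sod1*, *Prdx5*, *Blvrb*, *Gpx4* and *Prdx4*, had lower values in KO (median log2 ratio −0.20). Of the 10 such members of 2500 bases or more, 7 were higher in KO and their median was 0.10. Over all genes averaging 100 or more, the median went from −0.20 in the 590 genes under 1000 bases to 0.04 in the 3802 genes of 2500 bases or more. Across genes, Spearman's rho between length and log2 ratio was 0.47 for the 34 members and 0.30 for all 7063 genes of that level, values that share the same 6 libraries. Without regard to level it was 0.34 for the 40 members and 0.12 for all 16123 genes. The library with the largest size factor also had more of the long transcripts, with a rho of 0.28 in KO and 0.36 in WT across the 3307 weakly expressed genes. What part length or that library has in the ratios of the redox genes was not tested. After centring on genes of like length, *Gclc* (0.36), *Gclm* (0.34) and *Txnip* (0.32) were above the limit of 0.32 and *Msrb3* (−0.46) was past it on the lower side, while *Txn1*, *Gpx3* and *Msrb2* were at −0.23, −0.32 and −0.27. 

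**Figure D4:**
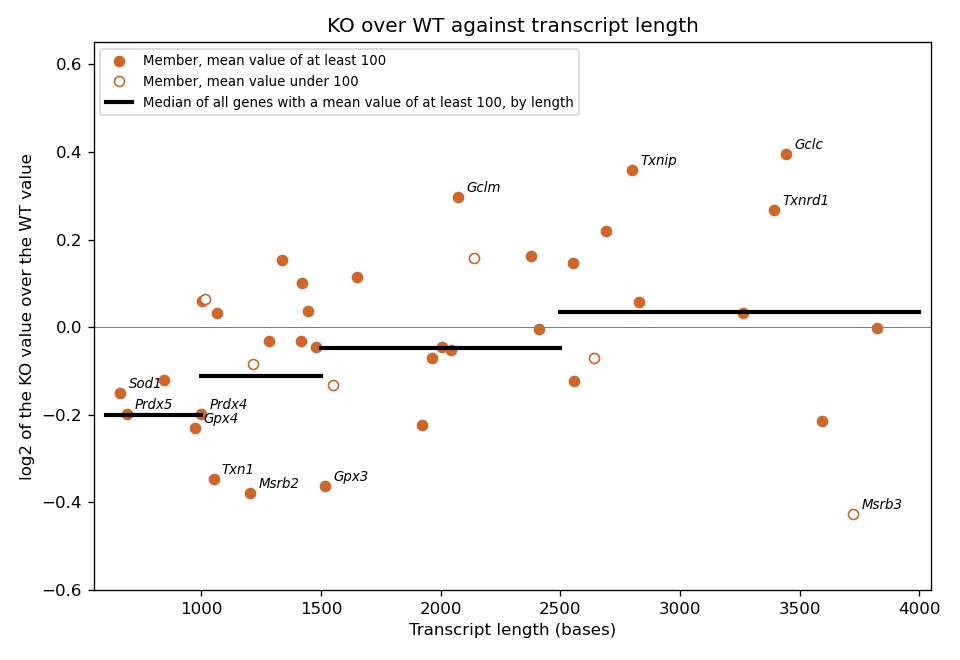
The log2 of the KO value over the WT value (vertical axis) against transcript length in bases (horizontal axis) for the 40 genes, filled where the mean of both genotypes is 100 or more, with black bars for the median of all genes of that level in classes of under 1000, 1000 to 1500, 1500 to 2500 and 2500 or more bases. The members under 1000 bases lie at or near the bar of −0.20, and *Gclc*, *Gclm*, *Txnip* and *Txnrd1* lie above the bars of their classes.

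The neighbouring pathways were read from lists of their genes, beside the 8.55% of all genes that were higher and the 15.5% that were lower past 0.32 on the log2 scale. The counts of the lists were not tested against these shares. Of 28 other NRF2 targets, 16 were higher and 12 lower in KO (median log2 ratio 0.07). Past 0.32 on the log2 scale were *Mafg*, a small MAF partner of NRF2, with 327 in WT and 440.2 in KO, and, as lower, the glutathione transferases *Gsta2* (74.9 and 45.1), *Gsta4* (289.0 and 216) and *Gstm1* (17013 and 13197). *Gsta2* was the single gene of this list past 1.5-fold, where 5.18% of all genes were lower. Of 12 genes of NADPH supply 1 passed a log2 ratio of 0.32, the pentose phosphate epimerase *Rpe*, with 61.8 in WT and 35.1 in KO. For cysteine supply and glutathione turnover, 1 of 24 genes was higher past the limit of 0.32, the glutathione exporter *Abcc1* (18.9 in WT and 26.1 in KO), and 3 were lower. These were *Gnmt*, which uses methyl groups of methionine (70275 and 53702), *Cth*, which releases cysteine from cystathionine (8233 and 6550.2), and the dipeptidase *Dpep1* (20.3 and 16.1). None of the 9 genes of selenoprotein synthesis was higher past that limit and 2 were lower, *Secisbp2l* (244 and 182) and *Trnau1ap* (302 and 236). Among 13 other selenoproteins 3 were lower past that limit and none higher. They were *Sepp1*, the selenium carrier of plasma (59837 and 47834), *Selt* (323 and 209) and *Selm* (60.8 and 48.0). The selenoproteins among the members did not share a direction, with *Gpx3*, *Gpx4* and *Txnrd2* lower in KO and *Txnrd1* and *Gpx1* higher. Of 18 other thioredoxin-fold and related genes, 2 were lower past that limit, *Txnl4b* (205 and 161) and *Tmx3* (25.4 and 15.6), and none higher.

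Markers of other cells of the liver were read beside these values. Red cell markers were higher in KO for 13 of the 16 genes listed, with sums of 118999 in WT and 180596 in KO, led by the haemoglobin genes *Hba-a1*, *Hba-a2* and *Hbb-bs*. Some genes of the redox set are also abundant in red cells. Their log2 ratios were −0.04 for *Prdx2*, −0.12 for *Blvrb*, 0.06 for *Glrx5*, 0.03 for *Gpx1* and 0.15 for *Cat*. When centred on genes of like length all 5 were above 0. That centring put most of the redox set there, with 26 members above 0 and 14 below, so that it does not single out these 5 genes. Stellate cell and fibroblast markers had sums of 2549 in WT and 2311 in KO, with 4 of 10 higher, among them *Col1a1* (0.76) and *Col3a1* (0.56) on the log2 scale, and 6 lower. Macrophage markers had 3138 and 3625 (6 of 8 higher), sinusoidal endothelial markers 2855.0 and 2685 (2 of 7 higher), bile duct markers 279 and 307 (2 of 6 higher), lymphocyte markers 106 and 81.6 (1 of 8 higher) and neutrophil markers 23.2 and 21.9 (4 of 8 higher). The deposited values are above 0 in both genotypes for every gene with a read in any library, so that they cannot show a marker's absence. The part of these markers in the values of the redox genes was not tested.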

How the data were processed

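Liver polyA RNA of 3 WT and 3 KO pools was sequenced, and groups were taken from the sample titles. GEO's processing notes name HISAT2, StringTie, Cufflinks, GATK, Bowtie2, RSEM and the build mm10, without roles. The deposited gene table holds, per genotype, an expression signal of the authors' DESeq2 comparison, whose pair has the mean of reads divided by size factors over 6 libraries as its midpoint and the shrunken ratio as its ratio, so that neither value is the mean of its own 3 libraries. Its fold changes and p-values were not used. The clean read count and the percent of reads mapped per library were deposited as the sequencing service reported them. The splicing event table was not used.

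The log2 ratio is that of the deposited pair of values, with no pseudocount and no filter. Levels between genes were divided by the transcript length of the table. What 1 read is worth in a library was read from mean values that 20 or more genes have in common, its genotype from the pair, and all sets of 6 whole numbers within 2.5 times the rounding were enumerated (numba 0.67.0). For sums up to 400, 8063 of 8081 genes left a single set. Where the ratio was beyond 0.5 on the log2 scale, these reads had the deposited direction in 1077 of 1077 genes. Both steps were tested on simulated data. The genotypes were compared with limma 3.58.1 in R 4.3.3 (Benjamini-Hochberg adjustment over 3307 genes) and with two-sided exact permutation tests (scipy 1.17.1). No source used here ties a recovered library to a pool, so that p-values and the limma intervals measure the spread between these libraries. Members, lists and tests were chosen with earlier results of these data known. All 40 members are named by role, and genes of other lists where past 0.32 on the log2 scale or as markers. *Msrb1* is named as well, beside the other methionine sulfoxide reductases. Protein features were not analysed here.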

Additional observations from a re-analysis of the deposited data

How the results depend on the processing

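With the limit at 0.32 on the log2 scale 6 members passed, and with 1.2-fold, chosen after the data were seen, 8, in place of 0 at 1.5-fold. Pseudocounts of 1 and 0.1, centring on the median of genes averaging 1 or more (−0.05), centring on genes of like length (also chosen after the data were seen) and a mean value of at least 10 left the count at 0 and the median log2 ratio of the members between −0.04 and 0.05. No setting of limma called a member. When the largest library by size factor had its own term in the model, 242 genes had an unadjusted p under 0.05 in place of 63, and *Msrb3* had an adjusted p of 0.835 in place of 0.999. Leaving out each library in turn gave limma differences between −0.53 and 0.53 for *Gpx7*, −0.80 and 0.026 for *Nqo1* and −0.91 and −0.12 for *Msrb3*. The difference in mean normalized reads then lay between −8.47 and 4.16 for *Gpx7*, −1.83 and 1.98 for *Gpx8*, −18.7 and 4.00 for *Nqo1*, −30.6 and −2.41 for *Msrb3* and 0.0202 and 1.47 for *Ggt1*. Without the library with the largest size factor of each genotype, chosen after the data were seen, *Gpx8* turned to −0.783 normalized reads and *Gpx7* to −0.32 in limma, and the cause was not tested. The KO libraries kept more clean reads and more uniquely mapped reads than WT whichever library was left out (by 717558 to 1661830 reads and 0.672 to 1.82 percentage points). No paired analysis was possible because the pools of the genotypes share a single number and the recovered libraries carry none. Depth limits the 5 genes with recovered reads, which had between 6 and 298 reads over the 6 libraries, and for the other 35 genes no spread between pools could be had.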
